A study of Mus musculus with 6 samples.

Results

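The IGF genes described here are 10 mouse genes of the insulin-like growth factor (IGF) system: the binding protein genes Igfbp2, Igfbp3, Igfbp4, Igfbp5, Igfbp6 and Igfbp7, the ligand gene Igf2, and the receptor genes Igf1r, Igf2r and Insr. The rule takes them by gene name and uses no measured value, and all 10 are among the 15016 genes of the deposited table. RNA was measured in organoids grown from cochlear progenitor cells of wild-type mice, with 3 libraries from soft gels and 3 from stiff gels. The gels were hybrids of methacrylated gelatin and hyaluronic acid that carried an RGD adhesion peptide. Before they were placed in gels, organoids of both groups were expanded for 8 to 10 days with EGF, bFGF and IGF (each at 50 ng/mL), CHIR99021 (3 µM), valproic acid, 2-phospho-L-ascorbic acid and 616452. The base medium held the supplements N2 and B27, which contain insulin. Both groups were then changed to CHIR99021 (3 µM), which activates Wnt signalling by blocking GSK3, and LY411575 (5 µM), which blocks Notch cleavage. IGF is named for the expansion medium, and not among the agents of the differentiation medium. Strain, age, gel stiffness and time in the gels are not given in the sources used here. Nothing in the labels says whether replicates were separate cultures, so each p-value reflects the spread of these libraries alone, which may be technical.

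IGF1 and IGF2 signal through IGF1R, a receptor tyrosine kinase closely related to the insulin receptor INSR, and from there through IRS adaptors to PI3K and AKT. IGF2R has no kinase: it takes IGF2 into the cell for breakdown and also sorts lysosomal enzymes that carry mannose 6-phosphate. The secreted binding proteins IGFBP2 to IGFBP6 hold IGFs with high affinity and so set how much ligand reaches the receptors, while IGFBP7 binds IGFs weakly. In the inner ear, IGF1 is known to be required for normal cochlear maturation and hearing.

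Igfbp3 and Igfbp7 were the members that fell in stiff gels, by 3.09-fold and 3.07-fold, whereas the 3 abundant binding proteins and the receptors showed no difference that passed the test. The sequences before the start sites of those genes and of Igfbp5, the most abundant member, are shown to let the genes that fell be set beside the one that dominated the RNA. Each is the run of 250 bases before a start in the RefSeq promoter table, read 5′ to 3′ on the gene's strand from RefSeq (GRCm38.p6, the same coordinates as mm10). For Igfbp3 this start (7213923) lies inside the full RefSeq span of the gene, which reaches 7215498. Capitals mark matches, on either strand, to the searched motifs.
Igfbp3 (chr11:7213924-7214173, minus strand): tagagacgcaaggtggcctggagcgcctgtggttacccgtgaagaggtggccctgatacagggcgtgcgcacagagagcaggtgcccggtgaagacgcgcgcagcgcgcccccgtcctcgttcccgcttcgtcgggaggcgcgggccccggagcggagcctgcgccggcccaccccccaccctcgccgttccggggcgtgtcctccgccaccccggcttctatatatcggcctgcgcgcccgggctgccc
Igfbp7 (chr5:77408046-77408295, minus strand): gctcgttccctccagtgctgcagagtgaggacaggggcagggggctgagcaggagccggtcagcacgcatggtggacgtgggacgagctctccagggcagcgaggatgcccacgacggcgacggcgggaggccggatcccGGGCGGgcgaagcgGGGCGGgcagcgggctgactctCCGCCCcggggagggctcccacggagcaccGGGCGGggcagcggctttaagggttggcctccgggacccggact
Igfbp5 (chr1:72874866-72875115, minus strand): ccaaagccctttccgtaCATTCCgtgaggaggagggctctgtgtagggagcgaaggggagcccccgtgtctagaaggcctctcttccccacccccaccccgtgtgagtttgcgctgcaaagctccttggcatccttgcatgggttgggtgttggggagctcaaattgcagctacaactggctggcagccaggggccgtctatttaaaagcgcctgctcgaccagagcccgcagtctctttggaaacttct

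The searched motifs were GGAATG (the core bound by TEAD factors, the partners of YAP and TAZ), TGANTCA (AP-1), TGTTTAC (FOXO), GGGCGG (SP1), TATAAA (the TATA box) and CACGTG (an E-box). The windows of Igfbp3 and Igfbp7 were rich in G and C, at 73.2% and 74.0%, against 58.8% for Igfbp5 and a median of 52.4% over all windows. Windows of members that were not called were also rich in them, at 77.6% for Igf1r, 69.2% for both Igfbp4 and Igf2r and 67.2% for 1 of those of Igfbp2. GGGCGG was found 4 times in the Igfbp7 window, 3 times each in 1 window of Igfbp2 and that of Igf2r, 2 times in that of Igf1r and in 2 windows of Igf2 (1 and 2 times), and is held by 32.7% of the 32851 promoter windows of the same length. The Igfbp5 window held 1 match to the TEAD core, 233 bases before the start, and 3 windows of Igf2 held it as well (2, 1 and 1 matches), a motif found in 12.6% of all windows. The Igfbp3 window held 0 matches to these motifs. Among 9 members with a window (13 windows in all; none for Insr), TGANTCA was found in 1 window of Igfbp2 TATAAA in those of Igfbp4 and Igfbp6, and CACGTG in 1 window of Igfbp2 and in that of Igf2r. Over all windows TGANTCA is held by 6.75%, TATAAA by 12.4%, TGTTTAC by 3.17% and CACGTG by 6.02%. These matches describe the letters only.

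Across the 6 libraries, depth was 16108470 to 17899391 reads, rebuilt from the deposited values. Soft replicate 1 stood between the groups on the first principal component, at -1.94 against -16.1 and -18.9 for the other soft libraries and 7.89 to 17.3 for the stiff ones. It is therefore named wherever a member's result rests on it. Levels below are FPKM, a read measure per gene length and depth, so they can be compared between genes. Tests were made with limma on log2(FPKM + 1) for the 11780 genes with a mean of at least 1 FPKM in either group, and genes with a Benjamini-Hochberg adjusted p under 0.05 are said to be called. Of those genes 5.81% were called, 3.13% higher and 2.68% lower in stiff gels. A fold change is stiff minus soft on that log2 scale, which understates changes of low genes. Of the 10 members 9 were tested, 2 were called lower and 0 higher (at an unadjusted p under 0.05 there were 4, Igfbp6 among them, which passed the filter only through the soft group; the share of all tested genes was 21.7%). Their median fold change was -0.15 on the log2 scale, beside 0.03 over all tested genes.

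**Figure D1:**
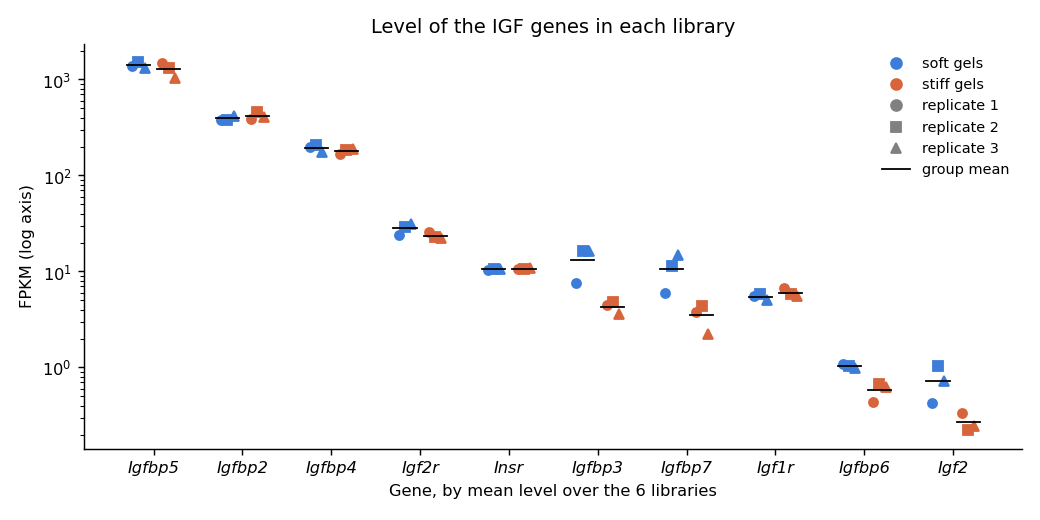
Each point is the FPKM (log axis) of a member in 1 library, with soft gels in blue, stiff gels in orange, marker shapes for the replicates and black lines for group means. Levels run from 1278 FPKM or more in both group means of Igfbp5 to 1.07 FPKM or less for Igfbp6 and Igf2, and the groups separate for Igfbp3, Igfbp7, Igfbp6 and Igf2.

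The binding protein RNA was dominated by Igfbp5, whose product binds IGFs and attaches to extracellular matrix (chromosome 1, 72858065 to 72874865, minus strand). Its level was 1396, 1507 and 1305 FPKM in soft replicates 1 to 3 and 1480, 1326 and 1028 FPKM in stiff replicates 1 to 3. The groups overlapped, and stiff replicate 3 was the lowest library. Igfbp5 ranked 33 of the 15016 genes by mean level and took 0.602% to 0.882% of all reads in a library. Its mean was 1403 ± 101 FPKM (SD, n = 3) in soft and 1278 ± 230 FPKM (SD, n = 3) in stiff gels. The log2 change was -0.15 ± 0.13 (SE, with limma adjusted p = 0.586), with a 95% interval of -0.44 to 0.15. Without stiff replicate 3 the log2 fold change was 7e-04.

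Igfbp2, which binds IGF2 in particular and is common in developing epithelia, was second (chromosome 1, 72824480 to 72852474, plus strand). It was at 379, 382 and 418 FPKM in soft gels and 385, 457 and 409 FPKM in stiff gels, so the groups overlapped. The log2 change was 0.08 ± 0.08 (SE, with limma adjusted p = 0.633; 95% interval -0.10 to 0.27). Igfbp2 and Igfbp5 lie side by side, 5.59 kb apart, and point toward each other. Igfbp4, a binding protein mostly known to hold IGF away from its receptor (chromosome 11, 99040005 to 99052655, plus strand), was at 197, 209 and 175 FPKM in soft gels and 168, 185 and 190 FPKM in stiff gels. Those groups overlapped as well, with a log2 change of -0.10 ± 0.08 (SE, with limma adjusted p = 0.575; 95% interval -0.28 to 0.09). Together Igfbp5, Igfbp2 and Igfbp4 made up 98.3% to 99.3% of the summed FPKM of the 6 binding protein genes in soft and 99.5% to 99.6% in stiff libraries. That sum was 1930 to 2127 FPKM in soft gels and 1634 to 2042 FPKM in stiff libraries, overlapping between groups.

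Igfbp3 fell (chromosome 11, 7206086 to 7215498, minus strand). Its product is the main carrier of IGFs in blood serum and also acts on cells apart from IGF. The level was 7.59, 16.2 and 16.2 FPKM in soft replicates 1 to 3 and 4.52, 4.85 and 3.57 FPKM in stiff replicates 1 to 3. The groups did not overlap, and soft replicate 1 was well below the other soft libraries. The mean went from 13.3 ± 4.95 to 4.31 ± 0.666 FPKM (SD, n = 3 each), 3.09-fold lower in stiff gels. The log2 change was -1.37 ± 0.24 (SE, with limma adjusted p = 0.0169; 95% interval -1.91 to -0.82), and the authors' deposited table gives -1.66 with q = 0.000477, where 8.12% of all genes were at q under 0.05 and 4.68% were lower. In reads this was 529, 1163 and 1164 against 324, 335 and 231.

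Igfbp7, a secreted protein also known from blood vessel matrix and from senescent cells, fell by a like amount (chromosome 5, 77349240 to 77408045, minus strand). It was at 5.95, 11.5 and 14.7 FPKM in soft gels and 3.79, 4.41 and 2.25 FPKM in stiff replicates 1 to 3. Again the groups did not overlap, and soft replicate 1 was the soft library nearest to the stiff ones. The mean went from 10.7 ± 4.43 to 3.49 ± 1.11 FPKM (SD, n = 3 each), 3.07-fold lower. The log2 change was -1.34 ± 0.28 (SE, with limma adjusted p = 0.0309; 95% interval -1.98 to -0.69), and the authors' deposited table gives -1.65 with q = 0.0101. Both falls kept their direction whichever library was left out, and both calls depended on the libraries. Without soft replicate 1 the adjusted p (limma) was 9.55e-05 for Igfbp3 and 0.000914 for Igfbp7, and without stiff replicate 2 it was 0.0376 and 0.0444. Neither gene was called without soft replicate 2 (0.0756 and 0.122), soft replicate 3 (0.0537 and 0.0877), stiff replicate 1 (0.0761 and 0.101) or stiff replicate 3 (0.0703 and 0.108). Without the filter on low values Igfbp7 was not called either (limma adjusted p = 0.0612).

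**Figure D2:**
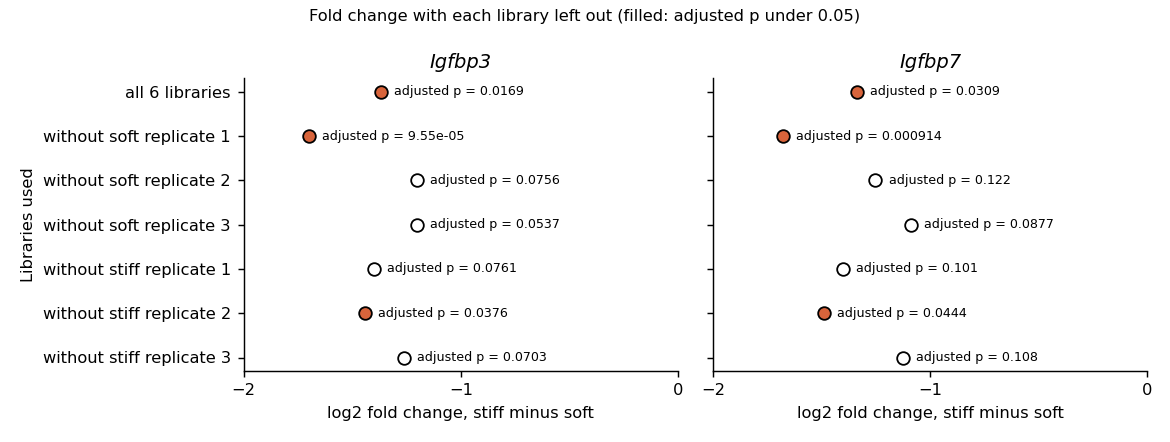
Log2 fold changes (stiff minus soft) of Igfbp3 and Igfbp7 with all 6 libraries and with each library left out, filled where the limma adjusted p is under 0.05. Estimates run from -1.70 to -1.20 for Igfbp3 and from -1.68 to -1.09 for Igfbp7, and 2 of the 6 fits keep each call.

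Igfbp3 and Igfbp7 together made up 0.681%, 1.30% and 1.60% of the summed binding protein FPKM in soft libraries and 0.356% to 0.468% in stiff ones. The ratio of Igfbp3 to Igfbp7 was 1.10 to 1.40 in soft and 1.10 to 1.58 in stiff libraries, so the ratio overlapped between gels. In whole organoids, fewer cells that express a gene and less RNA per cell cannot be told apart.

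Igfbp6 and Igf2 were rare. Igfbp6 encodes a binding protein that prefers IGF2 (chromosome 15, 102144186 to 102149512, plus strand). It was at 1.07, 1.04 and 0.997 FPKM in soft gels and 0.435, 0.677 and 0.626 FPKM in stiff gels, groups that did not overlap. These values rest on 24, 24 and 23 reads against 10, 15 and 13. The log2 change was -0.37 ± 0.10 (SE, with limma adjusted p = 0.0651), so it was not called. Igfbp6 passed the filter only through the soft group, in which it was higher. It was called without the filter (limma adjusted p = 0.039, where 1.47% of genes were called lower) and without an intensity trend (0.0317), but the authors' deposited table gives q = 0.346.

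Igf2, a growth factor of the embryo expressed from the paternal copy, was below the filter and has no test here (chromosome 7, 142650768 to 142666816, minus strand). It was at 0.427, 1.04 and 0.714 FPKM in soft gels and 0.336, 0.221 and 0.248 FPKM in stiff replicates 1 to 3. The groups did not overlap, on 37, 93 and 64 reads against 30, 19 and 20, and the soft libraries spread widely. In the authors' deposited table Igf2 was lower by a log2 fold change of -1.46 (q = 0.00246). Fitted without the filter, the log2 fold change was -0.43 and the limma adjusted p = 0.0956. Of the 10 members, 4 had groups that did not overlap (Igfbp3, Igfbp7, Igfbp6 and Igf2), all lower in stiff gels. Among all tested genes 25.9% had no overlap and 10.4% were lower without it. Nothing is read from that count, since Igf2 did not pass the filter and Igfbp6 passed only through the group in which it was higher.

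**Figure D3:**
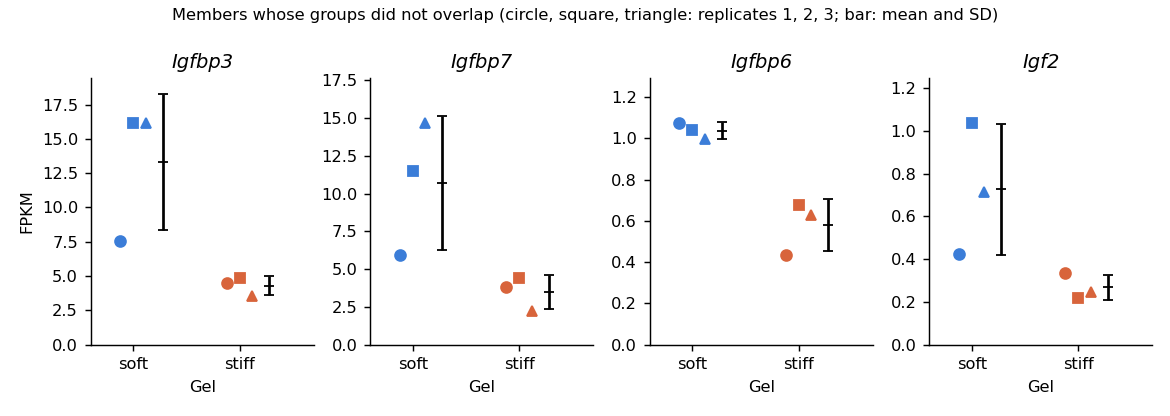
FPKM per library (linear axes from 0) of the 4 members whose groups did not overlap, with soft gels in blue and stiff gels in orange; black marks are the mean and SD of 3 libraries. In Igfbp3, Igfbp7 and Igf2, soft replicate 1 (circle) is the soft library nearest to the stiff ones, whereas for Igfbp6 the 3 soft libraries lie together.

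The receptors were steadier. Insr was at 10.5, 10.7 and 10.7 FPKM in soft gels and 10.7, 10.5 and 10.9 FPKM in stiff gels (chromosome 8, 3150922 to 3279649, minus strand). All 6 libraries lay within this narrow range, and the log2 change was 0.0085 ± 0.059 (SE, with limma adjusted p = 0.962; 95% interval -0.13 to 0.14). Igf1r, the signalling receptor of IGF1 and IGF2, was at 5.51, 5.77 and 5.06 FPKM in soft gels and 6.66, 5.79 and 5.58 FPKM in stiff gels (chromosome 7, 67952257 to 68233668, plus strand). Its groups overlapped, with a log2 change of 0.12 ± 0.08 (SE, with limma adjusted p = 0.471; 95% interval -0.07 to 0.31). Igf1r was at 0.472 to 0.540 of the Insr level in soft and 0.514 to 0.624 in stiff libraries.

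Igf2r, the clearance receptor of IGF2, was the most abundant receptor gene (chromosome 17, 12682406 to 12769706, minus strand). It was at 24.1, 29.2 and 31.2 FPKM in soft gels and 25.7, 22.6 and 22.5 FPKM in stiff gels. Soft replicate 1 lay below stiff replicate 1, so the groups overlapped. The log2 change was -0.24 ± 0.10 (SE, with limma adjusted p = 0.203; 95% interval for the single gene -0.46 to -0.01), and the authors' deposited table gives q = 0.0786. Without soft replicate 1 it was called lower (-0.34, limma adjusted p = 0.0204). The ratio of Igf2r to Igf1r was 4.37, 5.07 and 6.17 in soft and 3.86, 3.91 and 4.04 in stiff libraries, without overlap between groups. This ratio was not tested, and neither gene was called with all 6 libraries.

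**Figure D4:**
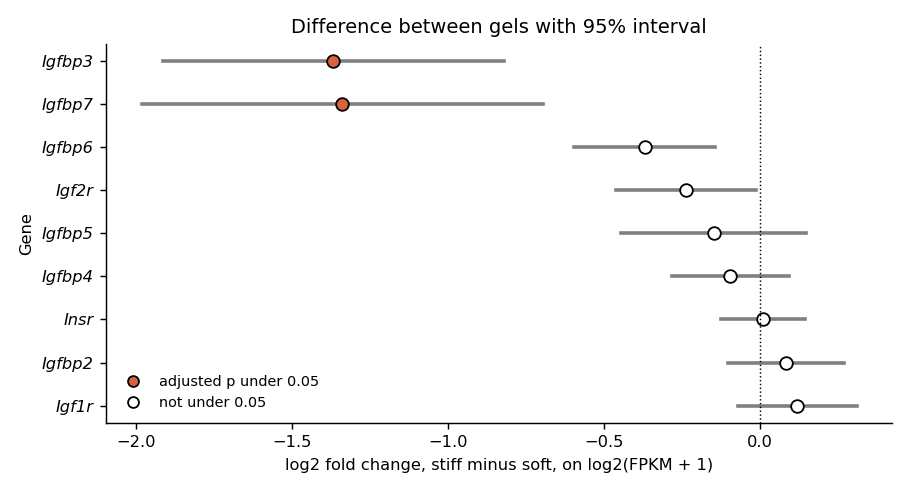
Log2 fold changes (stiff minus soft on log2(FPKM + 1)) of the 9 tested members with 95% intervals for each gene, filled where the limma adjusted p is under 0.05. Igfbp3 and Igfbp7 lie at -1.37 and -1.34, and the other 7 members between -0.37 and 0.12.

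Ordered by level, the members ran Igfbp5, Igfbp2, Igfbp4, Igf2r, Igfbp3, Igfbp7, Insr, Igf1r, Igfbp6 and Igf2 in soft gels. Neighbours in this order whose library ranges overlapped were Igfbp3 and Igfbp7, Igfbp7 and Insr, and Igfbp6 and Igf2. In stiff gels Insr and Igf1r stood above Igfbp3 and Igfbp7, and the only neighbours with overlapping ranges were Igfbp3 and Igfbp7. The lowest stiff value of Igf1r, 5.58 FPKM, was above the highest stiff value of Igfbp3, 4.85 FPKM.

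The rest of the pathway was read from 8 lists, which hold 148 other genes of the table, 124 of them tested. In these lists 4 genes rose and 9 fell, 10.5% of those tested, beside 5.81% of all tested genes. The median log2 fold change was -0.0071, beside 0.03 over all genes. Without soft replicate 1 there were 6 higher and 24 lower, in a fit that called 13.8% of all genes. Leaving out any other library gave 1 to 3 higher and 1 to 6 lower, in fits that called 0.552% (without soft replicate 2) to 3.71% (without stiff replicate 2) of all genes. The authors' deposited table has 5 higher and 22 lower among the same genes. Over all tested genes and Igf2 it has 9.46% at q under 0.05, 482 higher and 633 lower.

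Among ligands and other binding proteins 1 of 3 tested genes rose and 0 fell. Kazald1, which encodes a secreted protein with a binding-protein-like domain, rose from 5.06 ± 0.665 to 8.91 ± 0.596 FPKM (SD, n = 3), a log2 change of 0.71 ± 0.09 SE (limma adjusted p = 0.00918), a call that was kept whichever library was left out. Igf1 was at 2.05, 2.30 and 3.09 FPKM in soft gels and 1.50, 1.94 and 1.73 FPKM in stiff gels (chromosome 10, 87858265 to 87937047). Its groups did not overlap, but it was not called (log2 change -0.34 ± 0.12 SE, limma adjusted p = 0.140), except without soft replicate 1 (0.0461). The authors' deposited table has Igf1 lower with q = 0.0159. Igf1 RNA was above Igf2 RNA in each of the 6 libraries, by 2.22 to 4.80 times in soft and 4.47 to 8.80 times in stiff gels.

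Proteases that cleave binding proteins or process receptors, with their inhibitors, had 1 of 11 lower and 0 higher. The member that fell was Adam9, a membrane metalloprotease gene, from 26.3 ± 2.37 to 20.2 ± 0.267 FPKM (SD, n = 3; limma adjusted p = 0.0267), called in 1 of the 6 fits that leave out a library. Htra1, a secreted serine protease gene and the most abundant of the list by its mean over all libraries, was at 241 FPKM in soft gels and 162 FPKM in stiff gels on average (limma adjusted p = 0.107).

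Adaptors and regulators close to the receptors had 1 of 20 higher and 2 lower. Socs3, an inhibitor of cytokine receptors that also binds the insulin receptor, fell from 19.4 ± 4.81 to 6.70 ± 1.50 FPKM (SD, n = 3), a log2 change of -1.40 ± 0.19 SE (limma adjusted p = 0.00933). That call was lost only without soft replicate 2 (0.0518). Grb14, an adaptor that inhibits the insulin receptor, rose from 37.7 ± 4.77 to 56.0 ± 2.81 FPKM (limma adjusted p = 0.0123), but not without soft replicate 2, stiff replicate 1 or stiff replicate 3 (up to 0.0619). Sh2b2, an adaptor of the insulin receptor, fell from 4.46 to 3.01 FPKM (limma adjusted p = 0.0392), and was called in 2 of 6 such fits.

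Of 31 genes of PI3K, AKT, mTOR and FOXO, 1 rose and 0 fell. Foxo1, a transcription factor that AKT keeps out of the nucleus, went from 9.81 ± 0.500 to 12.6 ± 0.835 FPKM (SD, n = 3; limma adjusted p = 0.0333), and was called in 1 of the 6 fits that leave out a library. Of 17 tested FOXO target genes, 1 rose and 3 fell. Fbxo32, a ubiquitin ligase subunit gene, rose from 12.3 to 18.6 FPKM (limma adjusted p = 0.0124). Ddit4, an inhibitor of mTOR signalling, fell from 92.7 to 65.6 FPKM (0.00918), Pdk4, a kinase that restrains pyruvate oxidation, from 43.9 to 29.3 FPKM (0.0147), and Bcl6, a transcriptional repressor, from 11.7 to 9.26 FPKM (0.0211). Of these 4, Ddit4 was called whichever library was left out, Fbxo32 in 3, Pdk4 in 2 and Bcl6 in 1 of the 6 fits.

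**Figure D5:**
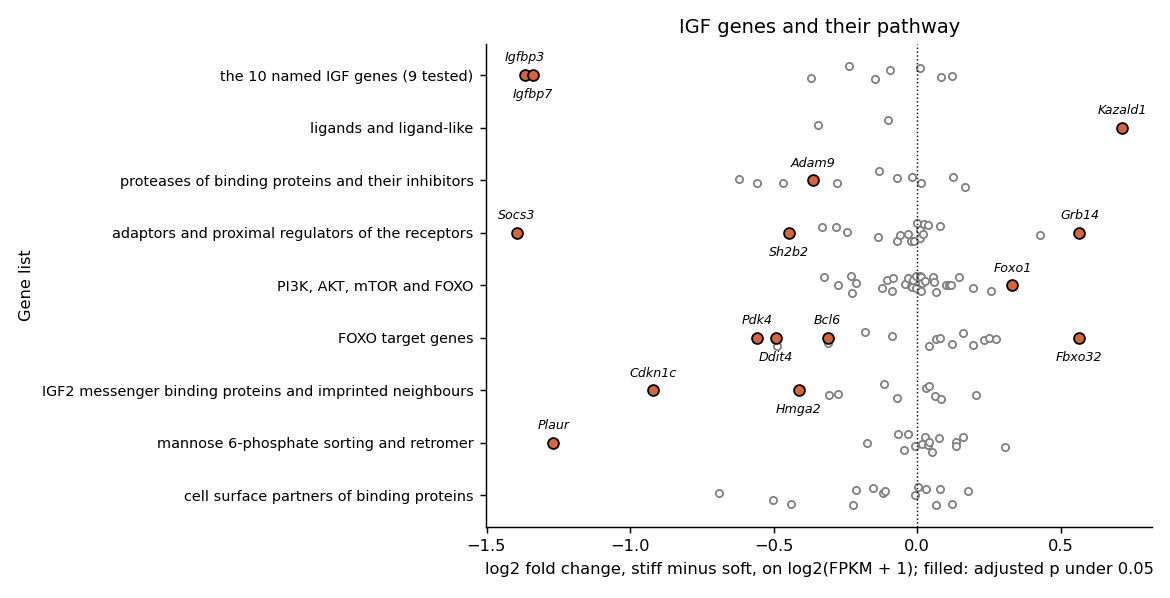
Log2 fold changes (stiff minus soft on log2(FPKM + 1)) of the tested members and of the tested genes of 8 pathway lists, 1 point per gene, filled and named where the limma adjusted p is under 0.05; vertical scatter within a row has no meaning. The members that fell, at -1.37 and -1.34, lie beside Socs3 at -1.40 and Plaur at -1.27.

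The list of IGF2 messenger binding proteins and imprinted genes had 2 of 11 lower and 0 higher. Cdkn1c, an imprinted cell cycle inhibitor in the same imprinted chromosome region as Igf2, fell from 89.4 ± 12.1 to 47.0 ± 7.98 FPKM (SD, n = 3), a log2 change of -0.92 ± 0.13 SE (limma adjusted p = 0.0104), and was called in 5 of the 6 fits that leave out a library. Hmga2, a chromatin protein gene, fell from 4.53 to 3.15 FPKM (limma adjusted p = 0.0373) and was called in 1 of them. Mannose 6-phosphate sorting genes, which share the sorting role of Igf2r, were listed with other genes such as Plaur, and this list had 1 of 16 lower and 0 higher. The 1 was Plaur, the urokinase receptor gene, whose product binds IGF2R; it fell from 17.3 ± 4.58 to 6.66 ± 2.35 FPKM (SD, n = 3; limma adjusted p = 0.0211; called in 2 of 6 such fits). Of 15 genes for surface and matrix partners of binding proteins, 0 were called by limma. At an unadjusted p under 0.05 there were 6 (limma), beside 21.7% of all tested genes. Without soft replicate 1, 5 were called lower and 0 higher, in a fit that called 13.8% of all genes. Without any other library 0 were called. The authors' deposited table has 0 higher and 2 lower. With all 6 libraries the lowest adjusted p were those of Itgb1, at 156 and 133 FPKM (limma adjusted p = 0.0686), and Thbs1, at 43.8 and 31.9 FPKM (0.104).

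Markers of cell types were also read, and their lists did not all move the same way. Cochlear supporting and prosensory cell markers, the labelled origin of the cells, were present, with 8 of 11 tested genes higher and 0 lower in stiff gels and a summed level of 668 to 882 FPKM in soft gels and 1096 to 1132 FPKM in stiff libraries. With stiff replicate 1, 2 or 3 left out, 1, 7 and 4 of them were called higher, and with soft replicate 1, 2 or 3 left out the numbers were 9, 2 and 5. Over all genes those fits called, in the same order, 0.958%, 3.71% and 1.22%, and 13.8%, 0.552% and 1.78%. The leave-out counts of the other marker lists come from the same fits. Gjb6, 1 of the 8, passed the filter only through the stiff group, in which it was higher (0.663 and 1.27 FPKM on average). It was called in 0 of the 6 fits that leave out a library. Of 6 tested endothelial cell and pericyte markers 2 fell, Rgs5 (18.2 to 8.50 FPKM) and Kdr (24.7 to 10.7 FPKM), and the list summed to 414 to 484 FPKM in soft gels and 354 to 442 FPKM in stiff libraries. The Kdr call was lost when soft replicate 2, or stiff replicate 1, was left out. Most of that sum was Emcn. Of the genes that define endothelium, Pecam1 and Tie1 were at 0 to 0.134 FPKM in each library, while Cdh5 was at 0.692 to 1.43 FPKM, Tek at 4.58 to 5.77 FPKM and Kdr at 8.68 to 28.2 FPKM. Mesenchyme and fibroblast markers had 0 of 12 tested genes called by limma, and 0 of these 12 by the authors' deposited table. At an unadjusted p under 0.05 there were 4 (limma), beside 21.7% of all tested genes. Without soft replicate 1, in a fit that called 13.8% of all genes, 2 were called higher and 2 lower. Without any other library 0 were called. The median log2 change of these markers was 0.0082. They summed to 633 to 758 FPKM in soft gels and 784 to 809 FPKM in stiff libraries, most of it Lum (326 and 411 FPKM on average) and Dcn (125 and 181 FPKM). In the same list Col3a1 was at 43.4, 90.4 and 84.4 FPKM in soft gels and 36.3, 44.5 and 24.4 FPKM in stiff replicates 1 to 3. Pdgfrb averaged 13.2 and 10.3 FPKM. Of the 12 tested markers, 2 were higher in stiff gels without overlap, Dcn and Tbx18 (52.8 and 58.3 FPKM on average), and 0 were lower without it. Over all tested genes 15.5% were higher and 10.4% lower without overlap. Col1a1 and Col1a2 were under 0.6 FPKM in each library, so they were below the filter and are not among the 12. Col1a2 was lower in stiff gels without overlap, at 0.515 and 0.127 FPKM on average in soft and stiff gels. The authors' deposited table gives it a log2 fold change of -2.05 (q = 5.24e-05). Fitted without the filter, its log2 fold change was -0.43 (limma adjusted p = 0.0144). Col1a1 was also lower without overlap, but had q = 0.602 in the authors' deposited table. Glial markers had 3 of 6 higher (0 without soft replicate 2 and 1 without soft replicate 3, stiff replicate 1 or stiff replicate 3; 135 to 175 FPKM summed in soft and 168 to 207 FPKM in stiff libraries), and epithelial markers 2 of 9 higher and 1 lower (1 to 3 higher and 0 or 1 lower with a library left out; 1212 to 1297 and 1265 to 1422 FPKM). Of 11 listed hair cell markers, Atoh1, Pou4f3, Pvalb, Ocm and Slc26a5 were not among the genes of the deposited table. Gfi1 and Otof were below the filter. Of 4 tested genes 2 were higher, Ush1c and Calb2, and Myo7a and Myo6 were not called. The number called higher was 0 without stiff replicate 1 or stiff replicate 3, and 1 without soft replicate 2, soft replicate 3 or stiff replicate 2. The list summed to 48.6 to 57.0 FPKM in soft and 68.8 to 76.9 FPKM in stiff libraries. Of 8 listed immune cell markers, Ptprc, Csf1r, Adgre1, Cx3cr1, C1qa and Aif1 were not among the genes of the deposited table. Cd14 fell among the 2 tested ones, Cd14 and Cd68, also with any library left out. The sum of those 2 markers overlapped, at 6.46 to 8.31 FPKM in soft and 5.66 to 7.72 FPKM in stiff libraries. The part of these cell types in the members' values was not tested.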

How the data were processed

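RNA-seq libraries of 3 soft-gel and 3 stiff-gel organoid samples, grouped by their titles, were compared. Per the submitters' processing notes, reads were aligned to mm10 with TopHat2 2.1.1 and compared with DESeq2. How reads were counted, and on which annotation, is not given in the sources used here. A kit that does not mark strand, TruSeq RNA v2, was used per the labels' protocols. The expression columns that the authors deposited were taken as FPKM, from their values. Per the file headers, the same table holds the base mean (a signal), the log2 fold change, its linear fold, a test score, and the p-value and q-value of the authors' own comparison. Reads were rebuilt from the FPKM steps and the base mean; 100.0% of values came out whole within 0.05 reads.

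Values were taken as log2(FPKM + 1) for genes with a mean of at least 1 FPKM in either group and fitted with limma 3.58.1 (R 4.3.3), with an intensity trend and no replicate block, over the 6 libraries. P-values were Benjamini-Hochberg adjusted over all 11780 tested genes. In data simulated for this comparison (11729 genes), 78% of genes changed 1.5-fold and 100% of those changed 2-fold were recovered, with 14 false calls among 192. Those data had a smoothed spread and no library that stood between the groups, so the shares may not hold for the measured libraries. In these, Col3a1, at 72.7 and 35.1 FPKM on average in soft and stiff gels, was not called (limma adjusted p = 0.0740). The members, the lists and the tests were chosen with earlier results of these data known. All members were named; of each list, called genes (up to 6 per direction), or the 2 with the lowest adjusted p where none was called, and genes of the highest level. Neighbours are the nearest listed genes within 200 kb. Likeness to the member with the lowest adjusted p was ranked by Pearson's r. RefSeq promoter windows and positions (GRCm38.p6) were matched by gene ID; the planned protein sequences were not used here. Alternatives were another pseudocount, other filters, median-ratio scaling, limma-voom on rebuilt reads, no trend, a replicate block, each library left out, and the authors' q-values.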

Additional observations from a re-analysis of the deposited data

How the results depend on the processing

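Over all genes, 685 were called, and this count ran from 65 (without soft replicate 2) to 1627 (without soft replicate 1) when single libraries were left out. It was 903 with limma-voom on rebuilt reads and 1115 by the authors' deposited q-values over the same genes and Igf2, where 43.2% of calls were higher in stiff gels against 53.9% in the limma fit. Among the members, 2 were called, from 0 to 3 with a library left out: 0 without soft replicate 2, soft replicate 3, stiff replicate 1 or stiff replicate 3, and 3 without soft replicate 1, where Igf2r was added. The pseudocount of 0.1, a filter at 5 FPKM, median-ratio scaling and limma-voom each called 2 members, Igfbp3 and Igfbp7. Without the filter, the 2 called members were Igfbp3 and Igfbp6. Without a trend there were 3, and the authors' deposited q-values called 3, with Igf2 added. The sign changed only for values near 0: that of Igfbp5 with single libraries left out (-0.26 to 7e-04, the latter without stiff replicate 3), and that of Insr with median-ratio scaling (-0.018), limma-voom (-0.014), the authors' deposited table (-0.020), and single libraries left out (-0.0024 to 0.019). The causes were not tested.

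With the replicate number as a block, 710 genes and 2 members were called. Same-numbered libraries had deviations correlated at r = -0.21 to 0.22 across genes, and 1 of 6 libraries correlated best with its own number. With 3 libraries per group these values cannot decide whether same-numbered libraries shared a batch, which the labels do not give.

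Reads limit Igfbp6 (10 to 24 reads) and Igf2 (19 to 93 reads) most; the 3 reads that an observed 0 would still allow are 0.13 to 0.144 FPKM for Igfbp6 and 0.0335 to 0.0372 FPKM for Igf2, for counting error only.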

Other observations

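The 5 tested genes whose pattern over the 6 libraries was most like that of Igfbp3 were Nid2, which encodes a basement membrane linker (Pearson's r = 0.999 on log2 values), the phosphatase gene Dusp2 (0.999), Litaf (0.999), the forkhead factor gene Foxq1 (0.997) and the lipase gene Pla2g7 (0.996). Each was lower in stiff gels, and soft replicate 1 lay between the other soft libraries and the stiff ones in all 5, as for Igfbp3. This shared pattern follows from choosing the genes by their likeness to Igfbp3. Nid2 was at 10.5, 15.4 and 15.6 FPKM in soft and 7.87, 8.20 and 7.28 FPKM in stiff replicates 1 to 3. Dusp2 was at 4.21, 12.3 and 11.9 FPKM in soft and 1.80, 2.37 and 1.19 FPKM in stiff replicates 1 to 3. Of 11780 genes, 23 had r over 0.99 with Igfbp3 and 330 had r over 0.95; Igfbp7 ranked 78, at r = 0.982. All points share the same 6 libraries, so these values describe likeness and carry no test.

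The nearest listed genes beside the members that fell had small differences. Adcy1, 27.6 kb from Igfbp3, was at 1.33 ± 0.0585 and 1.75 ± 0.104 FPKM (SD, n = 3; limma adjusted p = 0.135), with the higher mean in stiff gels. Noa1, 38.8 kb from Igfbp7, was at 8.18 ± 0.709 and 8.99 ± 0.635 FPKM (SD, n = 3; limma adjusted p = 0.443). Among the other tested neighbours within 200 kb that are not IGF genes, Top2a beside Igfbp4 was at 69.5 and 67.0 FPKM, Spryd3 beside Igfbp6 at 10.1 and 9.44 FPKM, Rpl37a beside Igfbp2 at 822 and 857 FPKM, Mrpl23 beside Igf2 at 13.1 and 12.8 FPKM, and Arhgef18 beside Insr at 5.16 and 5.03 FPKM in soft and stiff gels, none of them called (limma adjusted p = 0.571 to 0.926).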
